A study of Mus musculus with 15 samples.

Results

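Interferon-stimulated genes are the antiviral and immune effector genes that cells switch on when an interferon binds its receptor, and 42 of them were followed through 2 kinds of injury to the mouse corpus callosum. They were taken by gene symbol from a list of 42 and all 42 were found among the 33321 genes of the count table. All 42 also passed the filter on low counts that left 16795 genes to test. The choice by symbol used no measured value, but the list was drawn up with earlier results of these data known.

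RNA had been sequenced from 15 libraries, 3 in each of 5 groups. LPC_Ipsil is corpus callosum at the injection site of lysophosphatidylcholine (LPC), a detergent-like lipid that strips myelin, and LPC_Contra is the tissue on the other side of those brains. LNIO_Ipsil is tissue at the injection site of L-NIO, an inhibitor of endothelial nitric oxide synthase that narrows vessels and makes a small white matter stroke, and LNIO_Contra is the tissue opposite. Sham_Ipsil is tissue from sham mice at the place where saline had been injected. The 4 groups from lesioned brains date from day 4, and the labels name no day for sham. The labels give no strain, sex or age, and no genotype or transgene. Each model is represented by a single time point, and an injection tract is shared by the 3 injected groups. Nothing in the labels ties the 3 libraries of any group to different animals, so each p-value reflects only how much these samples varied, and that variation may be technical.

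Type I and type III interferons act through a complex, with Stat2 and Irf9 among its subunits, that binds the interferon-stimulated response element in the promoters of these genes. Type II interferon drives an overlapping set. Microglia, the macrophages of the brain, express many of these genes, and an interferon-responsive microglial state is known in injured and ageing white matter.

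Library totals ran from 14896445 to 20916606 counts. Levels are given as CPM, counts divided by a library total that was scaled by the trimmed mean of M-values (TMM), and 5 oligodendrocyte markers together held 14038.5 to 27449 CPM, the most of any marker list. LPC_Ipsil replicate 3 stood apart from the other injured libraries. Its 8 microglial markers summed to 457 CPM, against 2640 and 1808 CPM in LPC_Ipsil replicates 1 and 2, 693 to 1060 CPM in LNIO_Ipsil, and 321 to 508 CPM in the 9 sham and contralateral libraries. The counts of called members in LPC_Ipsil, and the values of the called members, are therefore also given without it. In LNIO_Contra replicate 1 and LNIO_Ipsil replicate 1, 13.7% and 15.9% of counts were from mitochondrially encoded genes, against 8.74% to 11.2% in the other 13 libraries.

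The response element was looked for in the promoters, since it is the sequence through which most of these genes are known to be read. RefSeq promoters (build GRCm38.p6, 250 bases before to 50 after the gene start) were found for 31 of the 42 members. Both strands were searched for the core of the element, 2 copies of GAAA with any 2 bases between them, which reads TTTC on the other strand, and no other motif was searched. Of the 31 members 16 held it, or 51.6%, against 3.99% of the 27025 genes with such a window. Segments that end before the gene start are printed 5′ to 3′ on the gene's strand for 6 members with more than 1 match, among them genes that differed most in their response, and capitals mark the bases of the matches. They come from chr4:156200845-156200926 (minus strand) for Isg15, chr19:34583343-34583446 (plus) for Ifit3, chr19:34607739-34607842 (plus) for Ifit3b, chr5:120907526-120907575 (minus) for Oas1a, chr3:142559969-142560043 (plus) for Gbp3 and chr8:71537557-71537632 (minus) for Bst2.
Isg15: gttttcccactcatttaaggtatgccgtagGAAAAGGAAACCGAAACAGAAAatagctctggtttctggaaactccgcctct
Ifit3: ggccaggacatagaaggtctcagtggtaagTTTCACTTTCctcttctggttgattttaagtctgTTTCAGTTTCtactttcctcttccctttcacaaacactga
Ifit3b: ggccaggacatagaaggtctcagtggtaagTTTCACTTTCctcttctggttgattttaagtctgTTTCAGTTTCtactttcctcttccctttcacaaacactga
Oas1a: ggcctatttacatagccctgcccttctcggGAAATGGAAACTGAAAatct
Gbp3: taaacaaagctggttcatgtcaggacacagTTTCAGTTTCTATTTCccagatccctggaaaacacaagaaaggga
Bst2: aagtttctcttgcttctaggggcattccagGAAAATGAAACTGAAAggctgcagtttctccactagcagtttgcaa

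The Isg15 segment held 3 overlapping matches and the others 2 each. In Ifit3 and Ifit3b, neighbouring genes that share sequence, the 104 printed bases were identical at all 104 positions. A match is only a run of letters, and no difference between members with and without one was tested. The median log2 difference between LPC_Ipsil and Sham_Ipsil was 1.11 over the 16 members with a match and 1.07 over the 15 without, and between LNIO_Ipsil and Sham_Ipsil it was 0.83 and 0.75.

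The comparison of LPC_Ipsil with Sham_Ipsil asks which of these genes differed at a demyelinating lesion from a saline injection. Of the 42 members 11 rose and 0 fell, at an edgeR adjusted p under 0.05. Among all 16795 genes, 4.19% were called higher and 0.994% lower in that comparison. The largest rises among the called members were those of Ifi27l2a, Lgals3bp and Oas1a, by 3.09, 2.88 and 2.76 on the log2 scale. The median log2 difference was 1.18 over the members and 0.01 over all genes. The difference was positive in 41 of 42 members, the exception being Cmpk2, and in 51.4% of all genes. The unadjusted edgeR p was under 0.05 in 30 members and in 3391 of all 16795 genes. In 27 of 42 members all 3 LPC_Ipsil libraries lay above all 3 sham libraries, against 14% of all genes. In bulk tissue, more cells of a type and more RNA per cell cannot be told apart in any of these differences.

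In LNIO_Ipsil against Sham_Ipsil, which asks the same of the stroke lesion, edgeR called 0 of the 42 members, as it called 0 of all 16795 genes (0%). The median log2 difference was nevertheless 1.01 over the members and -0.02 over all genes. The difference was positive in 38 of 42 members and in 46.8% of all genes, and the smallest adjusted p of a member was 0.263. The unadjusted edgeR p was under 0.05 in 28 members and in 1489 of all 16795 genes. In 25 members the LNIO_Ipsil libraries lay wholly above the sham libraries, against 10% of all genes. DESeq2 called 12 members, and limma on FPKM called 0. Of the 24943 genes with any count, DESeq2 called 0.798% higher. A limma or DESeq2 count of 0 given without a share of all genes, here or below, is not read as particular to these members. Shares beside the other DESeq2 counts use the same 24943 genes, a larger set than the 16795 that edgeR tested. Both lesion comparisons use the same 3 sham libraries, so their values are given side by side and are not independent.

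**Figure D1:**
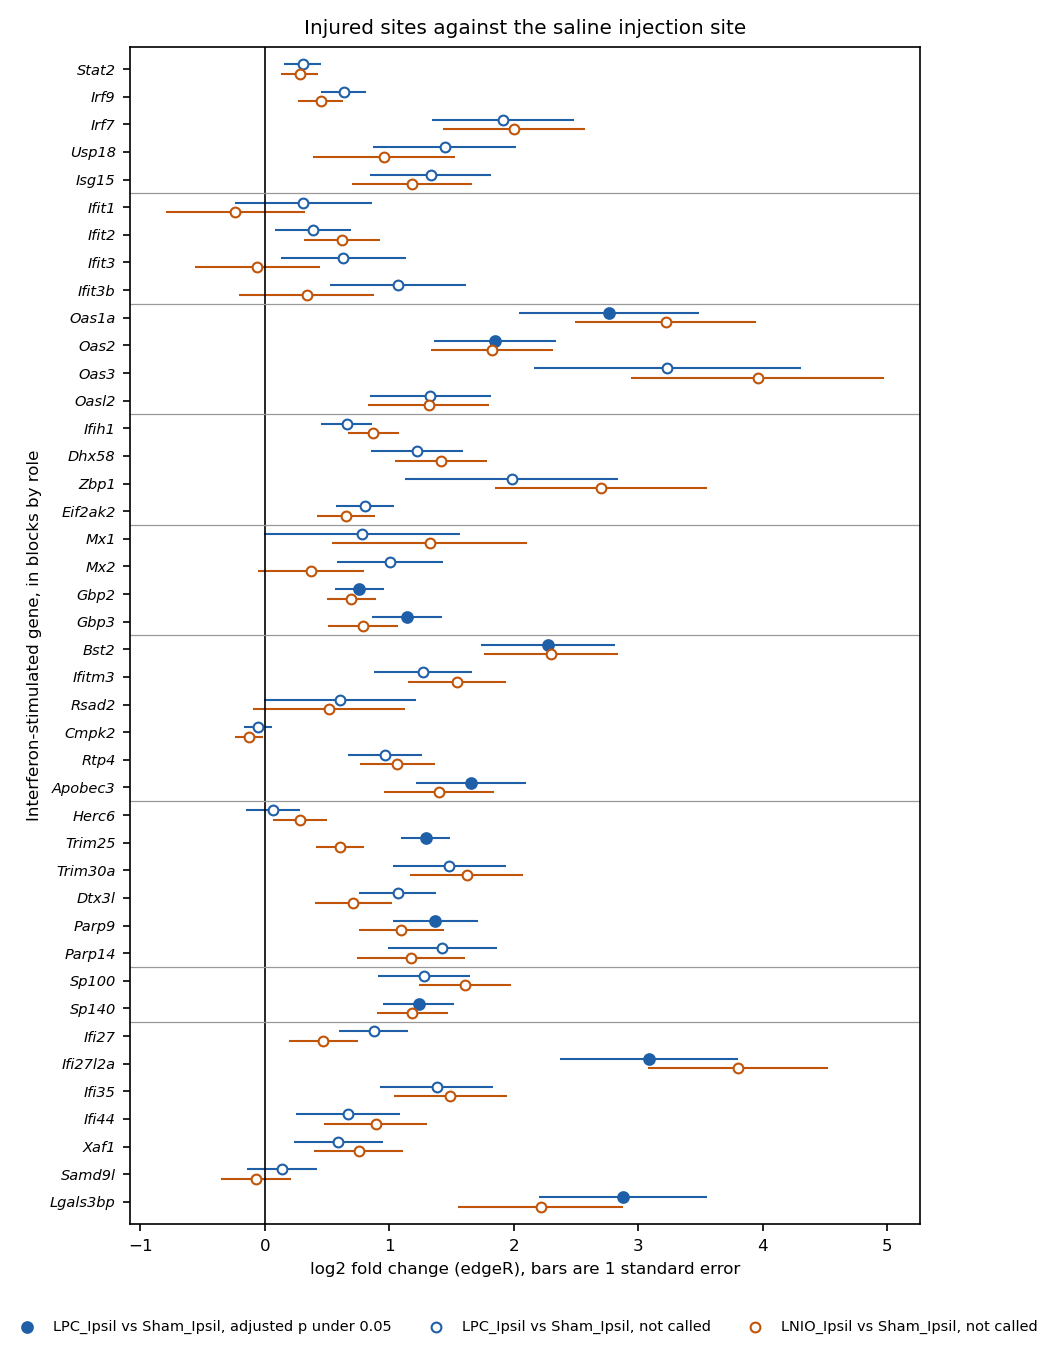
Log2 fold change of each of the 42 members (edgeR), for LPC_Ipsil (blue) and LNIO_Ipsil (orange) against Sham_Ipsil, with bars of 1 standard error and members in blocks by role. Filled points mark the 11 members called in LPC_Ipsil; none is filled for LNIO_Ipsil, where 38 of 42 points still lie to the right of 0.

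The signalling genes Stat2, Irf9, Irf7, Usp18 and Isg15 had positive differences in both lesions (median log2 1.33 in LPC_Ipsil and 0.95 in LNIO_Ipsil), but 0 of 5 passed the edgeR test, with an unadjusted p under 0.05 in 4 and 3. DESeq2 called Irf7 and Irf9 in LPC_Ipsil and Irf7 in LNIO_Ipsil. Stat2, a subunit of the interferon complex, was at 32.8, 36.2 and 39.7 CPM in Sham_Ipsil, 48.1, 39.99 and 46.3 in LPC_Ipsil and 43.4, 45.1 and 43.4 in LNIO_Ipsil. All 6 injured libraries were above the 3 sham libraries, but by little (log2 0.31 ± 0.15 SE and 0.28 ± 0.15, adjusted p 0.268 and 0.640). Its contralateral levels were 38.3, 34.4 and 38.8 CPM in LPC_Contra and 45.4, 32.7 and 28.4 in LNIO_Contra, so 1 contralateral library reached the injured range.

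Irf9, the DNA-binding subunit of that complex, was at 16.1, 14.7 and 16.3 CPM in Sham_Ipsil, 29.8, 23.4 and 19.9 in LPC_Ipsil and 22.6, 22.9 and 18.7 in LNIO_Ipsil. Neither lesion overlapped the sham libraries, and LPC_Ipsil came close to the threshold (0.63 ± 0.18, adjusted p 0.0567; LNIO_Ipsil 0.45 ± 0.18, 0.482). Irf9 was also above sham in all 3 LPC_Contra libraries, at 17.2, 20.1 and 18.7 CPM.

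Irf7, the transcription factor that amplifies interferon production, had the largest differences of the signalling genes. It was at 1.55, 2.30 and 3.62 CPM in Sham_Ipsil, 13.1, 7.79 and 7.49 in LPC_Ipsil and 3.51, 17.1 and 9.66 in LNIO_Ipsil. The LPC_Ipsil libraries were all above sham, whereas LNIO_Ipsil replicate 1 lay within the sham range (1.91 ± 0.57, adjusted p 0.0691, and 2.0 ± 0.57, 0.272). Contralateral Irf7 was 3.60, 6.42 and 2.01 CPM in LPC_Contra and 1.67, 2.27 and 0.670 in LNIO_Contra.

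Isg15, the ubiquitin-like protein that is attached to other proteins in this response, was at 0.597, 0.541 and 0.452 CPM in Sham_Ipsil, 1.93, 1.13 and 0.967 in LPC_Ipsil and 0.779, 0.945 and 1.88 in LNIO_Ipsil. All injured libraries were above sham, and so were the LPC_Contra libraries at 1.67, 0.817 and 0.778 CPM. The log2 difference was 1.33 ± 0.48 in LPC_Ipsil (adjusted p 0.132), 1.18 ± 0.48 in LNIO_Ipsil (0.489) and 1.04 ± 0.49 in LPC_Contra (0.515). Usp18, which strips Isg15 from its targets and damps receptor signalling, had 1.44 ± 0.57 and 0.95 ± 0.57 (0.169 and 0.697), with overlap in both lesions.

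The IFIT genes, whose products bind foreign RNA and block its translation, were the role with the smallest differences. None of the 4 was called by edgeR in LPC_Ipsil, where 4.19% of all genes were called higher. None had an unadjusted edgeR p under 0.05 in either lesion, against 3391 of all 16795 genes in LPC_Ipsil and 1489 in LNIO_Ipsil. DESeq2 called none, against 4.28% and 0.798% of the 24943 genes with any count. EdgeR called 0 of all genes in LNIO_Ipsil, and limma 0 of all 42 members in either lesion. Those counts of 0 are therefore not particular to this role. The median log2 difference of the 4 IFIT genes was 0.51 in LPC_Ipsil and 0.14 in LNIO_Ipsil. Ifit3b was at 4.96, 5.81 and 12.7 CPM in Sham_Ipsil, 19.2, 14.3 and 16.1 in LPC_Ipsil and 4.45, 17.1 and 8.23 in LNIO_Ipsil. Only the LPC_Ipsil libraries cleared all sham libraries (1.07 ± 0.55, adjusted p 0.294; LNIO_Ipsil 0.34 ± 0.55, 0.918).

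Its neighbour Ifit3 was at 8.66, 11.6 and 21.6 CPM in Sham_Ipsil, 25.6, 24.2 and 15.2 in LPC_Ipsil and 6.34, 15.2 and 18.8 in LNIO_Ipsil. Sham replicate 3 lay inside the LPC_Ipsil range and above all LNIO_Ipsil libraries, and the differences were 0.63 ± 0.50 (adjusted p 0.534) and -0.06 ± 0.50 (0.988). Of the 100-base windows of the Ifit3 transcripts 31.7% occur also in Ifit3b, and 27.4% the other way (GENCODE transcripts of GRCm38), so the division of reads between them is uncertain. Ifit2 was at 15.7, 14.1 and 16.5 CPM in Sham_Ipsil, 17.2, 19.2 and 24.1 in LPC_Ipsil and 13.3, 25.5 and 32.5 in LNIO_Ipsil. It had the smallest adjusted p of the role in LNIO_Ipsil (0.62 ± 0.31, 0.595), although replicate 1 was below all sham libraries.

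Ifit1 was the only member that exceeded all 9 sham and contralateral libraries in none of the 6 injured libraries. It was at 2.51, 2.64 and 11.1 CPM in Sham_Ipsil, 6.21, 5.10 and 9.0 in LPC_Ipsil and 2.95, 6.17 and 4.76 in LNIO_Ipsil. Sham replicate 3 was the highest of all 15 libraries for this gene, and both differences were within their error (0.31 ± 0.55 and -0.24 ± 0.56). Without it they were 1.39 and 0.85. Sham replicate 3 was the highest of the 3 sham libraries in 25 of 42 members, against 29.4% of all genes. For Mx1 the 3 sham libraries held 1.14, 0.135 and 4.27 CPM, and for Rsad2 1.79, 0.946 and 6.99 CPM.

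**Figure D2:**
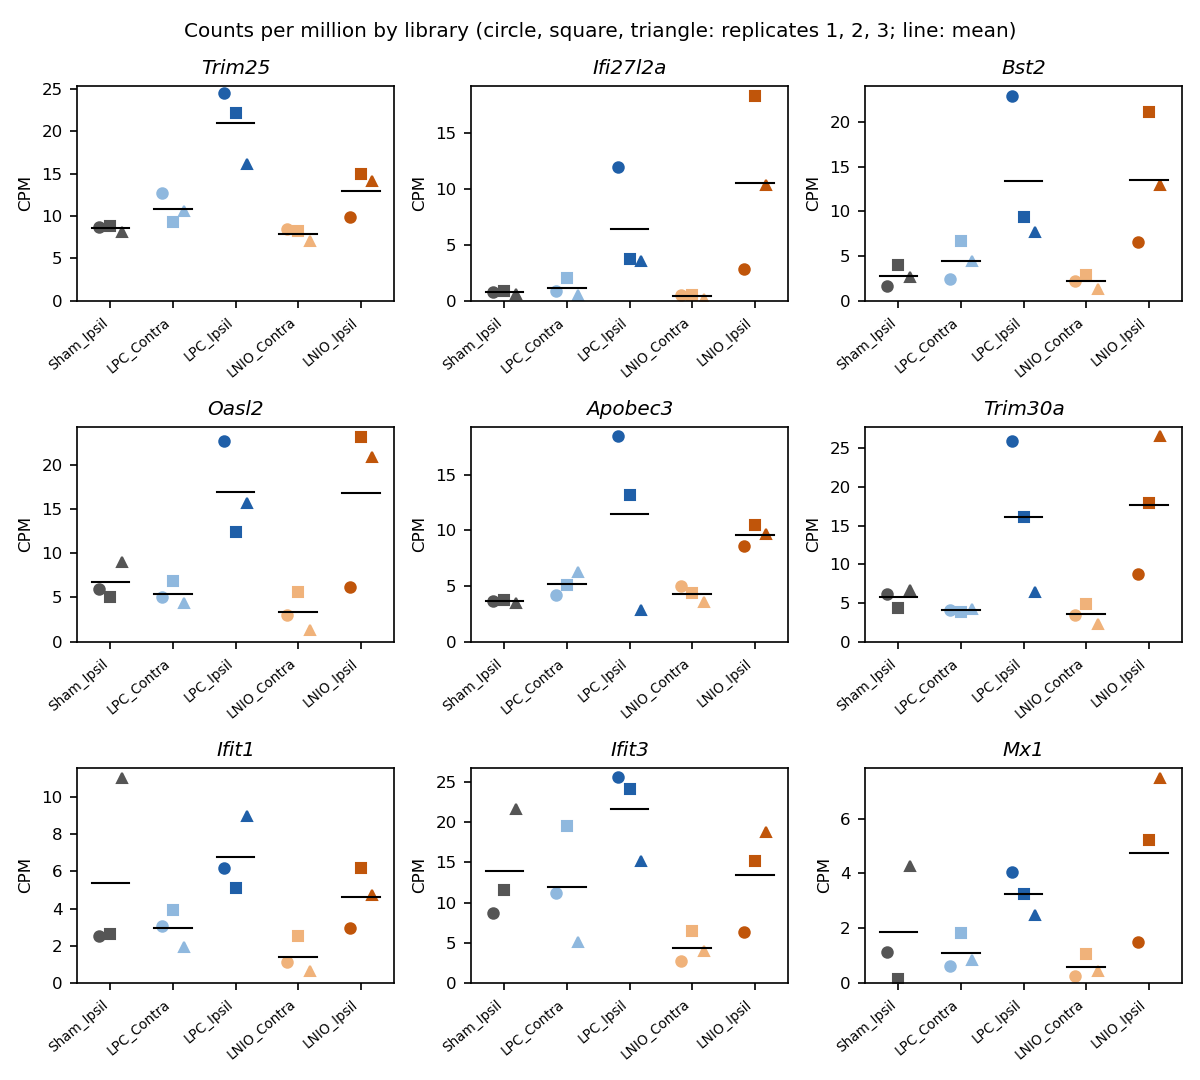
CPM of 9 members in each of the 15 libraries, with 1 panel per gene, circles, squares and triangles for replicates 1, 2 and 3, and a line at the group mean of 3 libraries; each axis starts at 0. Trim25, Ifi27l2a and Bst2 separate LPC_Ipsil from Sham_Ipsil, Apobec3 and Trim30a fall to the sham level in LPC_Ipsil replicate 3, and Ifit1, Ifit3 and Mx1 have a high sham replicate 3.

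The OAS genes make oligoadenylates that activate the RNA-degrading enzyme RNase L, and they had the largest differences of any role. Oas1a and Oas2 rose in LPC_Ipsil, 2 of 4, and all 4 had an unadjusted p under 0.05 in both lesions. The median log2 difference was 2.31 in LPC_Ipsil and 2.52 in LNIO_Ipsil. Oas1a was at 0.239, 1.08 and 1.01 CPM in Sham_Ipsil, 10.5, 3.64 and 1.81 in LPC_Ipsil and 2.78, 9.34 and 9.71 in LNIO_Ipsil. Neither lesion overlapped sham, and the differences were 2.76 ± 0.72 (edgeR adjusted p 0.0422) and 3.22 ± 0.73 (0.263). The LPC_Contra libraries, at 1.56, 2.39 and 0.648 CPM, reached into the LPC_Ipsil range, and LNIO_Contra held 0.460, 0.945 and 0.731. Of its transcript windows 40.9% occur also in Oas1g, so its counts are uncertain.

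Oas2 was at 0.717, 0.811 and 1.01 CPM in Sham_Ipsil, 4.52, 1.89 and 2.84 in LPC_Ipsil and 1.06, 3.89 and 4.11 in LNIO_Ipsil. LNIO_Ipsil replicate 1 was barely above the highest sham library, and the differences were 1.85 ± 0.49 (adjusted p 0.0427) and 1.83 ± 0.49 (0.263). Oas3 was close to absent outside the lesions. It had 0, 2 and 0 counts in Sham_Ipsil, 12, 6 and 5 in LPC_Ipsil and 3, 13 and 25 in LNIO_Ipsil. The ratio of summed levels to sham was 10.9 for LPC_Ipsil (95% exact interval 2.69 to 95.3) and 18.8 for LNIO_Ipsil (4.88 to 160), and these intervals cover counting error only. Oasl2, another protein of this family, had 1.33 ± 0.49 and 1.32 ± 0.48 (adjusted p 0.138 and 0.407).

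The sensors of foreign nucleic acid were 4 of 4 higher without overlap in LPC_Ipsil and 3 of 4 in LNIO_Ipsil, yet 0 of 4 passed the edgeR test in either. All 4 had an unadjusted p under 0.05 in both. DESeq2 called Ifih1, Dhx58 and Eif2ak2 in LPC_Ipsil and Ifih1 and Dhx58 in LNIO_Ipsil. Eif2ak2, the kinase PKR that stops translation when it binds double-stranded RNA, was at 11.1, 11.8 and 12.3 CPM in Sham_Ipsil, 26.1, 20.4 and 14.7 in LPC_Ipsil and 13.4, 18.7 and 22.9 in LNIO_Ipsil (0.80 ± 0.23, adjusted p 0.0600, and 0.65 ± 0.23, 0.387). Each injured library was above each sham library.

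Ifih1, which encodes the RNA sensor MDA5, was at 5.62, 4.46 and 4.67 CPM in Sham_Ipsil, 8.93, 8.36 and 5.98 in LPC_Ipsil and 8.12, 8.11 and 10.8 in LNIO_Ipsil. Both lesions cleared sham, by 0.66 ± 0.20 (adjusted p 0.0774) and 0.87 ± 0.20 (0.263). Dhx58, a regulator of that sensor, had 1.22 ± 0.37 and 1.42 ± 0.37 (0.0685 and 0.263); an antisense gene, Dhx58os, overlaps its exons, and with the strand setting unknown their reads cannot be told apart. Zbp1, a sensor of left-handed nucleic acid that can start necroptosis, had 1.98 ± 0.85 and 2.70 ± 0.85 (0.209 and 0.305).

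Among the interferon-induced GTPases, Gbp2 and Gbp3 rose in LPC_Ipsil and the 2 Mx genes did not pass the test. Gbp3, a guanylate-binding protein, was at 4.18, 6.55 and 6.63 CPM in Sham_Ipsil, 17.4, 10.5 and 10.5 in LPC_Ipsil and 10.02, 11.8 and 8.18 in LNIO_Ipsil. It cleared sham in both lesions (1.14 ± 0.28, edgeR adjusted p 0.0317, and 0.79 ± 0.28, 0.385). Gbp2 was at 5.62, 4.93 and 5.28 CPM in Sham_Ipsil, 11.3, 8.78 and 6.71 in LPC_Ipsil and 7.57, 9.11 and 8.97 in LNIO_Ipsil. Its lowest LPC_Ipsil library was replicate 3, still above sham (0.76 ± 0.19, 0.0372; LNIO_Ipsil 0.70 ± 0.19, 0.272). Mx1 and Mx2, dynamin-like GTPases that trap viral nucleocapsids, had 0.78 ± 0.79 and 1.0 ± 0.43 in LPC_Ipsil and 1.32 ± 0.79 and 0.37 ± 0.43 in LNIO_Ipsil, with overlap in each.

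Bst2 and Apobec3 were the called members among the 6 membrane and nucleotide effectors. Bst2, or tetherin, which holds budding virus at the cell surface, was at 1.67, 3.99 and 2.61 CPM in Sham_Ipsil, 22.9, 9.40 and 7.74 in LPC_Ipsil and 6.51, 21.1 and 13.0 in LNIO_Ipsil. Neither lesion overlapped sham, and the differences from sham were nearly equal in size (2.28 ± 0.54, edgeR adjusted p 0.0286, and 2.30 ± 0.54, 0.263). LPC_Contra held 2.40, 6.65 and 4.41 CPM and LNIO_Contra 2.24, 2.88 and 1.34. Apobec3, a cytidine deaminase that mutates retroviral DNA, was at 3.70, 3.72 and 3.52 CPM in Sham_Ipsil, 18.5, 13.2 and 2.84 in LPC_Ipsil and 8.62, 10.5 and 9.71 in LNIO_Ipsil. It rose in LPC_Ipsil (1.66 ± 0.44, 0.0454) although replicate 3 was below every sham library, and without that replicate the difference was 2.12.

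Ifitm3, which stops viruses from fusing with endosomes, had 1.27 ± 0.39 and 1.54 ± 0.39 (adjusted p 0.0778 and 0.263), and Rtp4, a receptor chaperone, 0.97 ± 0.30 and 1.07 ± 0.30 (0.0754 and 0.272), all without overlap. Rsad2, the radical enzyme viperin, had 0.60 ± 0.61 and 0.52 ± 0.61. Cmpk2, a mitochondrial nucleotide kinase whose gene lies beside Rsad2, had a level that moved little. It was at 25.2, 24.6 and 24.5 CPM in Sham_Ipsil, 22.6, 23.8 and 25.3 in LPC_Ipsil and 24.9, 23.2 and 20.02 in LNIO_Ipsil. The differences were -0.05 ± 0.11 and -0.13 ± 0.11, with overlap in both.

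Of the 6 enzymes that attach Isg15, ubiquitin or ADP-ribose, Trim25 and Parp9 rose in LPC_Ipsil. Trim25, the ligase that activates the RNA sensor RIG-I, had the smallest adjusted p of all 42 members. It was at 8.66, 8.85 and 8.14 CPM in Sham_Ipsil, 24.5, 22.2 and 16.1 in LPC_Ipsil and 9.85, 15 and 14.1 in LNIO_Ipsil. LPC_Contra held 12.8, 9.33 and 10.6 CPM, all above sham, and LNIO_Contra 8.46, 8.27 and 7.01. The differences from sham were 1.29 ± 0.19 in LPC_Ipsil (edgeR adjusted p 0.0243) and 0.60 ± 0.19 in LNIO_Ipsil (0.307).

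Parp9, an ADP-ribosyltransferase that works with the ligase Dtx3l, had 1.37 ± 0.34 in LPC_Ipsil (adjusted p 0.0329) and 1.10 ± 0.34 in LNIO_Ipsil (0.297). Dtx3l had 1.07 ± 0.31 and 0.71 ± 0.31 (0.0614 and 0.525). Their exons overlap on opposite strands and the strand setting of the counting is not known, so the 2 genes cannot be fully told apart. In the same GENCODE annotation, exons of Usp18, Eif2ak2, Gbp2, Sp140 and Ifi35 also overlap genes on the opposite strand. Those of Irf9, Rtp4, Apobec3, Herc6 and Parp14 overlap a gene on the same strand, so the counts of all these genes are uncertain to that degree. Trim30a was at 6.15, 4.39 and 6.68 CPM in Sham_Ipsil, 25.9, 16.1 and 6.41 in LPC_Ipsil and 8.68, 18 and 26.5 in LNIO_Ipsil. LPC_Ipsil replicate 3 lay within the sham range and LNIO_Ipsil above it (1.48 ± 0.45, 0.0752, and 1.62 ± 0.45, 0.272). Parp14 had 1.42 ± 0.44 and 1.17 ± 0.44 (0.0754 and 0.407), while Herc6, the mouse Isg15 ligase, had 0.07 ± 0.22 and 0.28 ± 0.22.

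Both nuclear body proteins, which sit with chromatin and restrict viral genomes, were higher without overlap in both lesions, and Sp140 rose in LPC_Ipsil. Sp140 was at 2.15, 2.09 and 1.36 CPM in Sham_Ipsil, 5.73, 4.58 and 2.84 in LPC_Ipsil and 3.45, 4.95 and 4.31 in LNIO_Ipsil (1.24 ± 0.29, edgeR adjusted p 0.0270, and 1.19 ± 0.29, 0.263). Of its transcript windows 19.1% occur in other genes. Sp100 was at 3.35, 3.31 and 4.07 CPM in Sham_Ipsil, 14.3, 7.27 and 4.53 in LPC_Ipsil and 7.79, 11.3 and 13.7 in LNIO_Ipsil (1.28 ± 0.37, 0.0592, and 1.61 ± 0.37, 0.263). For both genes LPC_Ipsil replicate 3 was the lowest of the injured libraries.

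Among the 7 other induced genes, Ifi27l2a and Lgals3bp rose in LPC_Ipsil and by the most of all called members. Ifi27l2a was at 0.777, 0.878 and 0.603 CPM in Sham_Ipsil, 11.9, 3.73 and 3.57 in LPC_Ipsil and 2.84, 18.3 and 10.4 in LNIO_Ipsil. All 6 injured libraries were above all 9 others, since LPC_Contra held 0.834, 2.04 and 0.518 CPM and LNIO_Contra 0.518, 0.520 and 0.183. The differences were 3.09 ± 0.71 (edgeR adjusted p 0.0279) and 3.80 ± 0.72 (0.263). Lgals3bp, a secreted glycoprotein that binds galectins, was at 11.3, 21.2 and 9.40 CPM in Sham_Ipsil, 194, 85.3 and 26.6 in LPC_Ipsil and 29.8, 99.3 and 64.7 in LNIO_Ipsil (2.88 ± 0.68, 0.0317, and 2.22 ± 0.66, 0.297).

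The other 5 of these genes were not called by edgeR. Ifi27 had 0.87 ± 0.28 and 0.47 ± 0.27, Ifi35 1.38 ± 0.45 and 1.49 ± 0.45, Ifi44 0.67 ± 0.42 and 0.89 ± 0.42, Xaf1 0.59 ± 0.36 and 0.75 ± 0.36, and Samd9l 0.14 ± 0.28 and -0.07 ± 0.28, in LPC_Ipsil and LNIO_Ipsil. Of them, Ifi27 and Ifi35 were called by DESeq2 in LPC_Ipsil and none in LNIO_Ipsil.

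**Figure D3:**
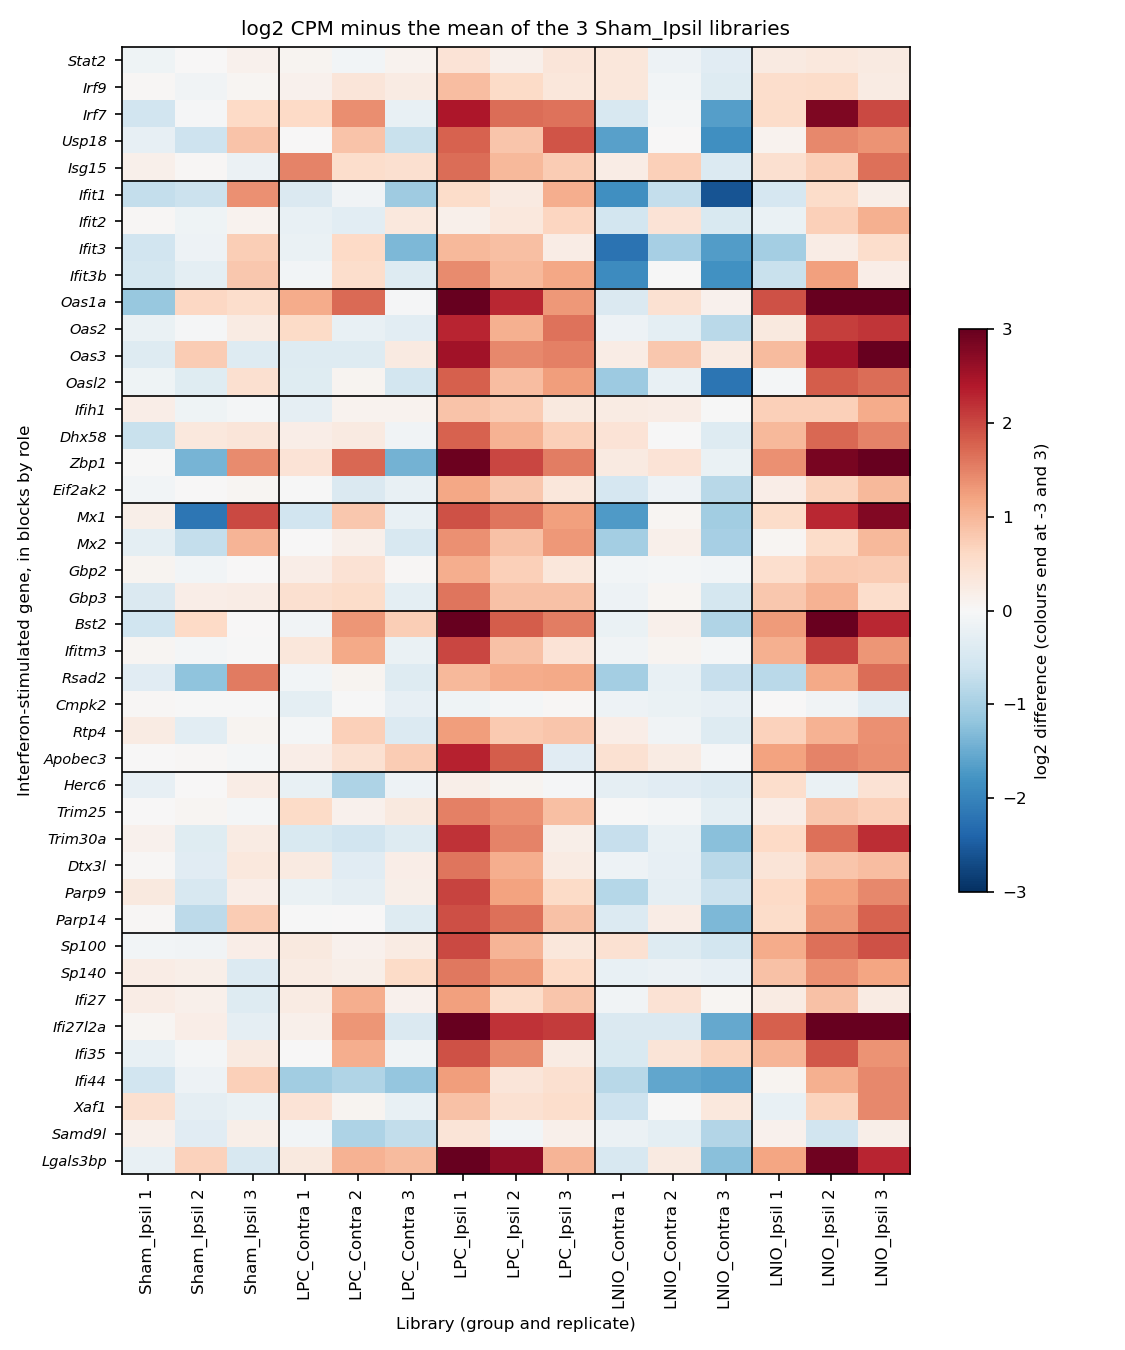
Log2 CPM of the 42 members in the 15 libraries, each minus the mean of the 3 Sham_Ipsil libraries (red higher, blue lower, colours ending at -3 and 3), with members in blocks by role and libraries by group. The 6 injured libraries are mostly red, and LNIO_Contra replicate 3 is mostly blue. Cmpk2, Herc6 and Samd9l change little in the injured libraries, while Herc6 and Samd9l are at -0.917 and -0.916 in LPC_Contra replicate 2.

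Per length, the order of the members differed between groups. By mean FPKM, the authors' length-scaled value, Ifi27 ranked 1 of 42 in Sham_Ipsil at 15.9 and Ifitm3 ranked 2 at 9.70, while Lgals3bp ranked 6 at 4.61. In LPC_Ipsil Lgals3bp ranked 1 at 33.4, and in LNIO_Ipsil Ifitm3 ranked 1 at 28.6. Ifi27l2a was 1.53 in Sham_Ipsil, 12.9 in LPC_Ipsil and 21.7 in LNIO_Ipsil. Oas3 was the lowest member in every group, at 0.00278 to 0.0973.

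The LPC_Ipsil calls depended on single libraries. Without LPC_Ipsil replicate 3, 21 members rose, including all 11 (8.01% of all genes were called higher), and the member median was 1.31. The values were then 1.45 for Trim25, 3.33 for Lgals3bp, 3.17 for Oas1a, 2.55 for Bst2 and 3.37 for Ifi27l2a. They were 0.93 for Gbp2, 1.26 for Gbp3, 1.9 for Oas2, 1.65 for Parp9 and 1.47 for Sp140. Without any 1 of Sham_Ipsil replicates 1, 2 and 3 or of LPC_Ipsil replicates 1 and 2, edgeR called 0 members, and the median was then 0.86 to 1.39. DESeq2 called 24 members with all libraries, including the 11 (4.28% of the 24943 genes with any count). Without the filter on low counts edgeR called 4 (1.68% of those 24943 genes). With the replicate number as a block it called 6 (3.13% of 16795 genes), though sham and LPC_Ipsil numbers did not pair. EdgeR on only the 2 groups compared, and limma on FPKM at either pseudocount, called 0. For the settings here that called 0 members, the share of all genes called is not given. Those counts of 0 are therefore not read as particular to these members.

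The direct comparison of LNIO_Ipsil with LPC_Ipsil asks whether the lesions differ in these genes. It gave 0 calls by edgeR (0% of all genes), DESeq2 and limma. The unadjusted edgeR p was under 0.05 in 1409 of all 16795 genes and in 1 member. That member was Trim25, lower in all 3 LNIO_Ipsil libraries than in any LPC_Ipsil library (-0.69 ± 0.19, adjusted p 0.522), and across all genes 7.61% were lower without overlap. Without LPC_Ipsil replicate 3, Trim25 was called lower (1.38% of all genes were). The median log2 difference was -0.04, or -0.22 without LPC_Ipsil replicate 3 and 0.20 without LPC_Ipsil replicate 1, so its sign rests on single libraries. Members ran from -0.74 ± 0.54 for Ifit3b to 0.72 ± 0.70 for Oas3. Ifi27l2a had 0.71 ± 0.61 and Lgals3bp -0.66 ± 0.62. These values do not show that the lesions were alike.

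Against their own contralateral side, all 42 members had positive differences in both models, and edgeR called 0 in either (0% of all genes). Of all genes, 51% had positive differences after LPC and 46.1% after L-NIO. For LPC_Ipsil against LPC_Contra the median was 1.09, and 26 members were higher without overlap (7.05% of all genes). In 27 members, and in 2036 of all 16795 genes, the unadjusted edgeR p was under 0.05. DESeq2 called 11 (2.36%), and limma 0. Without LPC_Ipsil replicate 3 edgeR called 15 (5.36%), Trim25 and Apobec3 among them. The smallest adjusted p with all libraries was 0.0629, shared by Trim25 (0.94 ± 0.19), Parp9 (1.5 ± 0.34), Eif2ak2 (1.02 ± 0.24), Ifi44 (1.91 ± 0.45) and Trim30a (1.99 ± 0.46).

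For LNIO_Ipsil against LNIO_Contra the median was 1.44, and 30 members were higher without overlap (7.9% of all genes). In 37 members, and in 1021 of all 16795 genes, the unadjusted edgeR p was under 0.05. DESeq2 called 21 (0.686%), and limma 0. The largest difference was that of Ifi27l2a (4.64 ± 0.77, adjusted p 0.186), followed by Oas1a (3.33 ± 0.73, 0.212). An edgeR model of these 2 groups alone called 16 members (2.11%). With the same-numbered L-NIO libraries taken as pairs, edgeR called 0 and the median was 1.44. The difference between the side differences, LNIO minus LPC, had a median of 0.33 and was positive in 36 of 42 (43.4% of all genes). EdgeR and DESeq2 called 0 members. The unadjusted edgeR p was under 0.05 in 0 members and in 171 of all 16795 genes. This difference between sides was largest for Ifi27l2a (2.16 ± 1.01).

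On the contralateral side no member was called against sham. LPC_Contra against Sham_Ipsil had a median of 0.05, with 24 of 42 positive against 53.4% of all genes. LNIO_Contra against Sham_Ipsil had -0.34, with 6 of 42 positive against 50.8% of all genes. Leaving out 1 library moved the LPC_Contra median between -0.055 (without LPC_Contra replicate 2) and 0.25 (without Sham_Ipsil replicate 3), and that of LNIO_Contra between -0.50 (without LNIO_Contra replicate 2) and -0.15 (without Sham_Ipsil replicate 3; -0.19 without LNIO_Contra replicate 3). EdgeR called 0 members in either (0% of all genes called higher in both, and 0.00595% and 0% lower), and DESeq2 and limma called 0. The unadjusted edgeR p was under 0.05 in 2 and 3 members, and in 1624 and 457 of all 16795 genes. In LNIO_Contra 7 members were lower than sham without overlap, against 5.13% of all genes. They were Ifit1 (-1.93 ± 0.60), Ifit3 (-1.67 ± 0.53), Ifi44 (-1.55 ± 0.46), Ifi27l2a, Eif2ak2, Herc6 and Cmpk2, named after their values were seen. LNIO_Contra replicate 3 was the lowest of all 15 libraries in 19 of 42 members, against 5.45% of all genes. In LPC_Contra 4 members were higher without overlap (7.06% of all genes), namely Isg15, Irf9, Trim25 and Apobec3, and Ifi44 and Trim30a were lower (8.07%).

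LNIO_Contra directly against LPC_Contra had a median of -0.44, with 4 of 42 positive against 47.4% of all genes. EdgeR (0% of all genes), DESeq2 and limma called 0 members there, and 4 were lower without overlap (4.67% of all genes). The unadjusted edgeR p was under 0.05 in 3 members and in 576 of all 16795 genes. The 3 LNIO_Contra libraries had member medians of -0.25, -0.05 and -0.54 relative to sham, and the 3 LPC_Contra libraries 0.02, 0.17 and -0.20.

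Library by library, the member median relative to sham was 1.60, 0.97 and 0.73 in LPC_Ipsil and 0.53, 1.17 and 1.36 in LNIO_Ipsil. All 6 injured libraries were above all 9 others, whose highest value was 0.19 in Sham_Ipsil replicate 3. The mean of the 8 microglial markers on the same scale was 2.72, 2.16 and 0.36 in LPC_Ipsil and 0.91, 1.52 and 1.25 in LNIO_Ipsil, and at most 0.62 elsewhere. LPC_Ipsil replicate 3 had a microglial marker mean inside the range of the 9 sham and contralateral libraries and a member median above theirs. Its members summed to 439 CPM, against 837 and 541 CPM in replicates 1 and 2 and at most 356 CPM in the 9 sham and contralateral libraries.

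**Figure D4:**
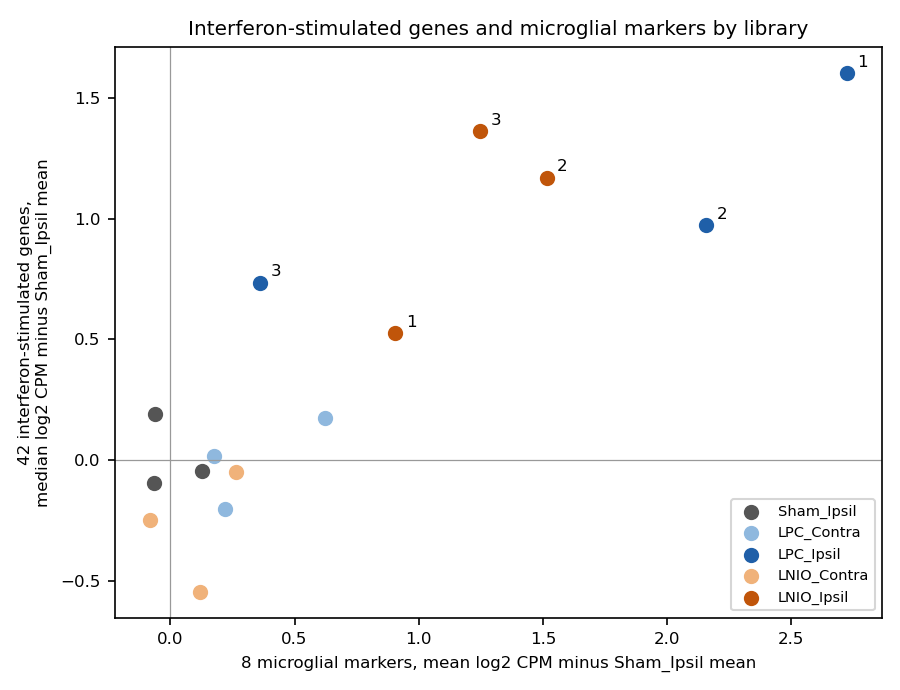
Each point is 1 of the 15 libraries: the mean over 8 microglial markers (x axis) and the median over the 42 members (y axis) of log2 CPM minus the Sham_Ipsil mean, with replicate numbers beside the injured libraries. All 6 injured libraries lie above the other 9 on the y axis, and LPC_Ipsil replicate 3 lies at 0.36 on the x axis, within the range of the other 9.

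In LPC_Ipsil replicate 3, 22 of 42 members were above all 9 sham and contralateral libraries, against 7.92% of all genes. The count was 36 and 27 in LPC_Ipsil replicates 1 and 2 (19.9% and 14.2% of all genes) and 17, 32 and 33 in LNIO_Ipsil (12.6%, 10.8% and 10.5%). LNIO_Ipsil replicate 1, the library with the fewest, had the highest mitochondrial share, whose part in this was not tested. Members that cleared all 9 in every injured library numbered 7, against 0.81% of all genes. They were Oas3, Ifih1, Dhx58, Eif2ak2, Parp9, Sp140 and Ifi27l2a. LPC_Ipsil replicate 1 was the highest of all 15 libraries in 24 of 42 members, against 16.3% of all genes.

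Beside these genes, all 8 microglial markers rose in LPC_Ipsil against Sham_Ipsil by the same test (median log2 2.18). In LNIO_Ipsil 0 were called (median 1.39, an unadjusted p under 0.05 in 7, DESeq2 1). EdgeR called 0 of all 16795 genes in LNIO_Ipsil, so a 0 there, here or in the lists below, is not particular to a list. Without overlap, 6 of the 8 were above sham in LPC_Ipsil and 8 in LNIO_Ipsil, against 14% and 10% of all genes. The part of microglia, or of the other cell types below, in the differences of the members was not tested. The 6 monocyte and macrophage markers summed to 7.55 to 46.4 CPM in LPC_Ipsil, 16.4 to 24.7 in LNIO_Ipsil and 5.87 to 13.3 elsewhere. They did not move together: in LPC_Ipsil against Sham_Ipsil 4 of 6 were positive, from -0.54 to 3.02 on the log2 scale. EdgeR called 1 of the 6 there and 0 in LNIO_Ipsil. Of the T cell markers Cd3e was at most 0.167 CPM, while Cd4 was at 3.7 to 31.9 CPM in Sham_Ipsil and 17 to 30 CPM in LPC_Ipsil (0.19 ± 0.63) and made up nearly the whole list. The 5 natural killer markers summed to at most 1.21 CPM, and Ly6g, a neutrophil marker, was 0 in every library. Csf3r, at up to 191 CPM, carried the neutrophil list and is also known in microglia, while S100a8 was at most 0.543 CPM. The 5 plasmacytoid dendritic cell markers include the member Bst2, and Tcf4, at 257 to 566 CPM in the 15 libraries, made up most of their sum. Siglech, which microglia also express, rose to 78.5, 47.2 and 22.1 CPM in LPC_Ipsil (1.57 ± 0.31, edgeR adjusted p 0.0243), Tcf4 had -0.37 ± 0.18, Ly6d 0.10 ± 0.73, and Ccr9 was at most 0.661 CPM. Of 5 astrocyte markers 2 rose in LPC_Ipsil, Gfap (2.05 ± 0.46, 0.0270) and Aldh1l1 (0.66 ± 0.15, 0.0256), and of 5 neuronal markers Neurod6 fell (-1.50 ± 0.34, 0.0262). The astrocyte markers summed to 3982, 3106 and 1791 CPM in LPC_Ipsil and 1260 to 1620 CPM in Sham_Ipsil. All 5 endothelial markers were positive against Sham_Ipsil in LPC_Ipsil, LNIO_Ipsil and LPC_Contra (medians 0.59, 0.20 and 0.76). In LNIO_Contra 2 of 5 were positive (median -0.08). EdgeR called 0 of the 5 in each comparison. In LPC_Ipsil, LNIO_Ipsil and LPC_Contra its unadjusted p was under 0.05 in 3, 0 and 5 of them. Among all 16795 genes it was in 3391, 1489 and 1624. Without LPC_Ipsil replicate 3, 8 microglial and 4 astrocyte markers rose, where 8.01% of all genes were called higher. So did 2 monocyte and macrophage, 2 plasmacytoid dendritic cell, 1 neutrophil and 1 endothelial marker. Of the T cell, oligodendrocyte and neuronal markers 0 rose.

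The interferon genes had few or no counts. Of 21 ligand genes in the table, 14 had 0 counts in every library, and none passed the filter. Ifnb1 had 1 count in all 15 libraries together and Ifng had 0. Ifnz had 20 counts in all and at most 4 in a library, and the others had at most 1 in a library. At these depths ligand transcripts at a few copies per library could not be measured.

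Among the receptors and proximal signalling genes, the receptor chain genes Ifnar2 (0.99 ± 0.26, edgeR adjusted p 0.0403) and Ifngr1 (1.01 ± 0.23, 0.0255) rose in LPC_Ipsil, and Ifnar1 had 0.15 ± 0.11. Ptpn6, a phosphatase of blood and microglial cells that damps cytokine receptors, was at 55.9, 25.7 and 5.14 CPM in LPC_Ipsil and 2.71 to 4.06 in Sham_Ipsil (3.14 ± 0.59, 0.0243).

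Of 16 tested genes that sense nucleic acid upstream of interferon, 5 rose in LPC_Ipsil and 0 in LNIO_Ipsil (an unadjusted p under 0.05 in 7, DESeq2 2). In LNIO_Ipsil edgeR called 0 of all 16795 genes. Irf5, a transcription factor below the endosomal receptors, was at 38.1, 21 and 5.32 CPM in LPC_Ipsil and 2.63 to 2.77 in Sham_Ipsil (2.98 ± 0.49, edgeR adjusted p 0.0243). Unc93b1, the chaperone of those receptors, had 2.45 ± 0.48 (0.0243), and Sting1, the adaptor for cytosolic DNA, 1.57 ± 0.38 (0.0307, with overlap). Of 19 tested interferon-gamma targets, 3 rose in LPC_Ipsil and 0 in LNIO_Ipsil (5 at an unadjusted p under 0.05, DESeq2 2), namely Irf8 (3.29 ± 0.61, 0.0243), Cd274 (1.47 ± 0.33, 0.0258) and Gbp5 (0.99 ± 0.26, 0.0426). Irf8 also defines microglia and was at 111, 64.5 and 11.4 CPM in LPC_Ipsil.

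Of 11 MHC class I genes, which present peptides to T cells, 6 rose in LPC_Ipsil and 0 in LNIO_Ipsil (6 at an unadjusted p under 0.05, DESeq2 3). B2m, the shared light chain, was at 81.6, 66.9 and 50.2 CPM in Sham_Ipsil, 554, 278 and 82.4 in LPC_Ipsil and 222, 210 and 194 in LNIO_Ipsil (2.2 ± 0.48, edgeR adjusted p 0.0262, and 1.65 ± 0.48, 0.278). In LPC_Ipsil replicate 3 B2m was barely above the sham libraries, and it was below LPC_Contra replicate 2, at 125 CPM. Without LPC_Ipsil replicate 3 the counts were 9 of 16, 7 of 19 and 9 of 11 in the sensing, interferon-gamma and MHC class I lists, and without any 1 of the other 5 libraries of the comparison they were 0. These lists were drawn up with earlier results of these data known. Their LPC_Ipsil counts are read only against the share of all genes called higher, 4.19% with all libraries and 8.01% without LPC_Ipsil replicate 3. Where 1 of the other 5 libraries was left out, that share is not given. In LNIO_Ipsil edgeR called 0% of all genes, and DESeq2 called 0.798% of the 24943 genes with any count higher. The unadjusted edgeR p was under 0.05 there in 1489 of all 16795 genes.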

How the data were processed

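RNA was sequenced from 15 libraries in 5 groups of 3. The authors deposited 1 table of raw counts per gene and, beside them, FPKM values (counts scaled by length and depth, as the column names in the file header say). Per the submitters' processing notes, the build was GRCm39, and the tools included HISAT2 2.2.1 and R 4.4.2. Which annotation and counting program were used, and with which strand setting, is not given in the sources used here. No column was without a sample (0). No 2 libraries of a group agreed within sampling noise (chi-square per degree of freedom 10.1 to 63.7), so none was treated as the same library deposited again; this does not show that they are separate animals.

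The test on counts was that of edgeR 4.0.16 (R 4.3.3): TMM scaling, a filter on low counts by group (minimum count 10, minimum total 15), 1 quasi-likelihood model of the 15 libraries, and Benjamini-Hochberg adjustment over all 16795 genes tested, with a threshold of 0.05. CPM are counts over the TMM-scaled total. Errors of log2 differences are standard errors. DESeq2 1.42.0 and limma 3.58.1 on log2(FPKM + 0.1) or log2(FPKM + 1), another scaling, no filter, only the groups compared, a replicate block and leaving out each library were the alternatives. The scripts were tested on simulated data.

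The members and lists were chosen with earlier results of these data known. Values in every library were given for the member of each role with the smallest adjusted p in each lesion comparison, and for Stat2, Irf9, Irf7, Isg15, Ifit3 and Ifit3b; Ifit1, Oas2, Apobec3, Cmpk2, Lgals3bp and other genes shown library by library were added after their values were seen. Replicate numbers were checked for pairing by correlating deviations from group means: LNIO_Ipsil and LNIO_Contra with the same number correlated at 0.60, 0.36 and 0.25, and each correlated best with its own number, so these were taken as pairs. No other pair of groups met that rule. The values of 1 proximal signalling gene, and the counts over its list, are not reported here.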

Additional observations from a re-analysis of the deposited data

How the results depend on the processing

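With 3 libraries a group, calls were unstable while medians were less so. Where an alternative setting called 0 members, the share of all genes called is not given, so the 0 is not read as particular to them. Members called higher in LPC_Ipsil against Sham_Ipsil numbered 4 without the low-count filter, 24 with DESeq2, 0 with limma at either pseudocount, 0 with only the groups compared, and 0 to 21 when 1 library was left out, with medians of 0.86 to 1.39. With the replicate block, although sham and LPC_Ipsil numbers did not pair (no library correlated best with its own number), 6 were called. In LNIO_Ipsil against Sham_Ipsil, DESeq2 called 12 and the model of only the groups compared 6. Against the contralateral side, DESeq2 called 11 after LPC and 21 after L-NIO, the model of only the groups compared 16 after L-NIO, and leaving out 1 library gave 0 to 15 and 0 to 1. The block for the L-NIO pairs changed no call. Leaving out 1 library gave 0 to 1 members lower in LNIO_Ipsil than LPC_Ipsil, and a median of 0.18 to 0.66 for the difference between side differences. On log2(FPKM + 1) the medians were 0.58 and 0.51 against sham and 0.56 and 0.66 against the contralateral side, for LPC and L-NIO; a pseudocount of 1 shrinks differences of low genes. The other causes were not tested.

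Some small differences changed sign when 1 library was left out, none of them called. In LNIO_Ipsil against sham, Ifit1 ran from -0.58 to 0.85 (0.077 with limma on log2(FPKM + 0.1)), Ifit3 from -0.38 to 0.41, Ifit3b from -0.30 to 0.88, Rsad2 from -0.015 to 1.77 and Samd9l from -0.20 to 0.14. In LPC_Ipsil against sham, Ifit1 ran from -0.030 to 1.39, Herc6 from -0.043 to 0.18 and Samd9l from -0.0027 to 0.25. Isg15 against LPC_Contra ran from -0.058 to 0.75. The highest values of Ifit1 in both lesions, and of Ifit3, Ifit3b and Rsad2 in LNIO_Ipsil, came without Sham_Ipsil replicate 3.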
